A study of Mus musculus with 52 samples.

Results

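The comparison described here is between endothelial ribosomes of the WT cerebral cortex, whose vessels form a blood-brain barrier, and those of the WT choroid plexus, whose vessels are fenestrated. Its members are set by the sample labels: the RiboTag bound fractions of WT mice, 2 libraries from cortex and 2 from choroid plexus, 4 of the 52 samples of the series. The series as a whole asked how beta-catenin signaling in CNS endothelial cells (ECs) relates to their barrier state. It holds RiboTag RNA-seq of cortex and choroid plexus, RNA-seq and chromatin accessibility of sorted ECs from cerebellum and pituitary, and WT and beta-catenin stabilized animals for each. The mice were adult males of the genotype RiboTag; Pdgfb-CreER. In RiboTag mice, Cre switches a ribosomal protein to a version with an HA tag, and here the Cre is driven from Pdgfb regulatory sequences, which are active in ECs, and is turned on with 4HT given weeks before dissection. Tagged ribosomes and the mRNA on them were pulled down with an anti-HA antibody and form the bound fraction, while the input is an aliquot of the same homogenate before the pull-down. Choroid plexi of several animals were pooled for each sample, so a choroid plexus library is not 1 animal. Groups used for comparison were the 4 WT inputs, the 4 bound libraries of stabilized mice (RiboTag; Pdgfb-CreER; BcatEx3fl, in which Cre also removes the exon of beta-catenin that marks the protein for degradation), and sorted cells of adult male Tie2-GFP mice from cerebellum, anterior pituitary and posterior pituitary. The labels do not say that replicates came from separate litters or days, and p-values therefore measure only the spread between these libraries.

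Brain capillary ECs are joined by continuous tight junctions, carry few transcytotic vesicles and supply the brain through dedicated carriers for glucose, amino acids, lactate, lipids and thyroid hormone. Canonical Wnt signaling, driven in the brain by ligands from neural and glial cells and read out in ECs by beta-catenin with TCF/LEF factors, is required to build and keep this state. Choroid plexus capillaries have no such barrier: their walls are pierced by fenestrae spanned by diaphragms of PLVAP, plasma filters through them, and the surrounding epithelium both forms the blood-cerebrospinal fluid barrier and secretes VEGF-A, which keeps the capillaries fenestrated.

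The WT cortex libraries stood apart from the other RiboTag libraries in ways that their inputs shared and stabilized cortex did not. Protein-coding genes held 53.5% and 54.9% of the TPM in WT cortex bound and 57.0% and 62.2% in WT cortex input, but 18.2% to 26.6% in the other 12 RiboTag libraries, choroid plexus and stabilized cortex alike. The median effective transcript length, which the quantification derives from the fragments, was 1018 and 1053 bases in WT cortex bound and 1398 and 1405 bases in WT choroid plexus bound. Total estimated counts were 14699601 and 21399125 in WT cortex bound against 7517032 and 7585218 in WT choroid plexus bound. In WT mice tissue and set of libraries therefore cannot be told apart, and 3 further contrasts, 1 in the stabilized mice and 2 in sorted cells, are given beside the WT values. Their tissues lay closer in median effective length, at 1299.9 and 1286 bases in stabilized cortex bound against 1389.7 and 1321 in stabilized choroid plexus bound, and at 1224 and 1274 in WT cerebellum ECs against 1107 to 1194 in WT pituitary ECs. All levels below are TPM rescaled so that protein-coding genes sum to 1000000 in each library, which removes the split in non-coding RNA. TPM is also divided by each library's own effective lengths, whereas the log2 fold changes come from counts without that correction, so the split in length sits in the fold changes and the 2 measures can differ. A fold change from the same fit with effective length corrected for is called length-corrected, and it is given beside most of the fold changes that it moved by over 1.5 times or whose call it ended.

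Marker genes of the cell types in each tissue were read first. The 18 general endothelial genes, among them Pecam1, Cdh5, Kdr and Tek, summed to 3490 and 1394 TPM in the 2 cortex bound libraries and to 2458 and 3225 TPM in the choroid plexus bound libraries, against 126 and 85.8 TPM in cortex input and 224 and 194 TPM in choroid plexus input. All 18 were called higher in bound than in input in both tissues by edgeR's quasi-likelihood test (a Benjamini-Hochberg adjusted p below 0.05 and at least a 2-fold difference, the call rule used throughout), with a median log2 enrichment of 4.88 in cortex and 3.67 in choroid plexus. For comparison, 11.3% of all genes tested were called higher in bound in cortex and 9.03% in choroid plexus. In cortex 1718 genes were called higher in bound and 217 lower, and with DESeq2 1651 and 761. The pull-downs of both tissues thus carried the endothelial markers their label calls for, although endothelial markers made a larger share of cortex replicate 1 than of replicate 2. In bulk libraries, fewer cells of a type and less RNA per cell cannot be told apart.

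**Figure D1:**
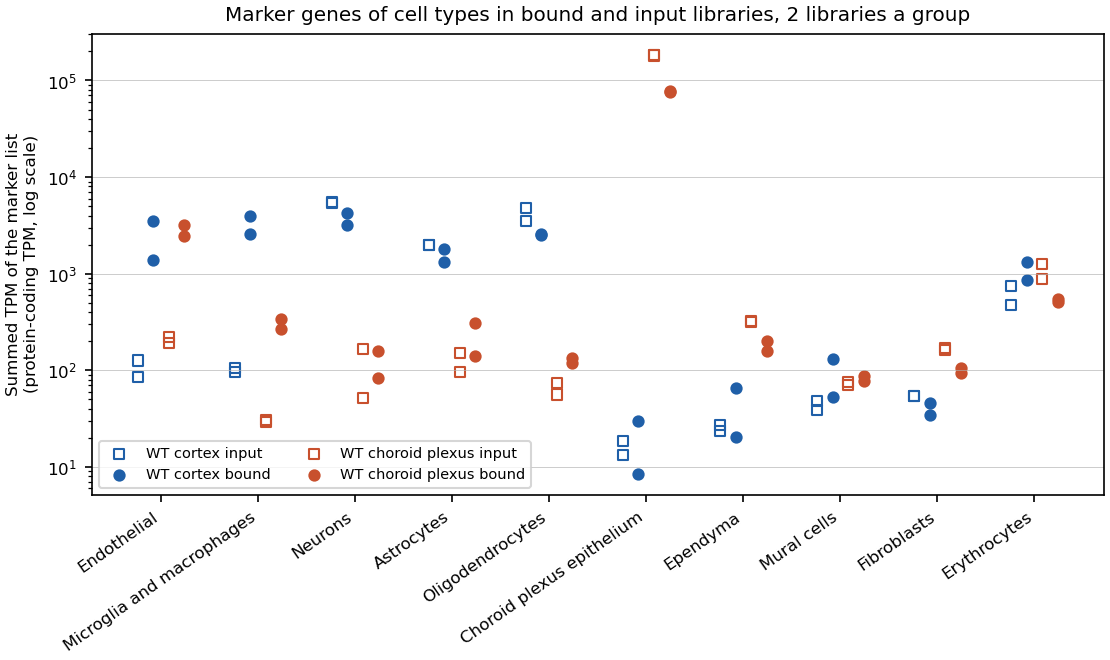
Summed TPM (log axis) of the marker genes of 10 cell types in the WT libraries; squares are inputs and filled circles bound fractions, 1 symbol per library. Endothelial markers rise from 85.8 to 224 TPM in the inputs to 1394 to 3490 TPM in the bound fractions, microglial markers rise with them in both tissues, and choroid plexus epithelial markers stand at 75445 and 78379 TPM in the choroid plexus bound fractions.

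Other cell types remained in the pull-downs, and not the same ones in each tissue. The 10 markers of choroid plexus epithelium summed to 75445 and 78379 TPM in choroid plexus bound, lower than the 181848 and 184867 TPM of its inputs, and to 29.9 and 8.46 TPM in cortex bound, where the epithelial channels Kcnj13 and Kcne2 were at 0 in both libraries. Transthyretin, Ttr, the main secreted protein of that epithelium, alone made 70924 and 73624 TPM. The 10 neuronal markers reached 3162 and 4207 TPM in cortex bound and 159 and 83.1 TPM in choroid plexus bound, and none was enriched over input. Astrocyte markers (8 genes) stood at 1322 and 1791 TPM against 308 and 140 TPM, and oligodendrocyte markers (8 genes) at 2597 and 2508 TPM against 134 and 120 TPM. Microglia and macrophage markers behaved otherwise: the 9 genes summed to 3925 and 2590 TPM in cortex bound against 106 and 95.9 TPM in its inputs, and 8 of them were called enriched in cortex bound, with a median log2 enrichment of 4.71. In choroid plexus they rose from 29.0 and 30.7 TPM in input to 269 and 344 TPM in bound, and 7 of the 9 were called enriched, with a median of 2.71. The same held in stabilized mice, with 3477 and 3110 TPM in cortex bound and 372 and 594 TPM in choroid plexus bound. Genes of microglia and macrophages therefore pass a filter on bound over input in both tissues, and the part of these cells in the lists below was not tested beyond the sorted-cell values given there.

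Of 14558 protein-coding genes tested across the 8 bound libraries, 2593 (17.8%) were called higher in WT cortex and 2145 (14.7%) higher in WT choroid plexus. Without cortex replicate 2 the balance turned, to 1923 and 2069. To reach genes of ECs, 2 further filters were applied, namely enrichment of bound over input in the tissue where the gene was higher and at least 10 TPM in both of its libraries. After these, 335 genes (2.3% of those tested) formed the cortex list and 404 (2.78%) the choroid plexus list. Positive log2 fold changes denote higher levels in cortex throughout. Counts of genes called in the lists below are read beside the 17.8% and 14.7% of all genes.

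Most transporters of the barrier were higher in cortex. Of the 22 genes of this list, 17 were called higher in cortex, 2 higher in choroid plexus and 3 were not called, and the list's median log2 fold change was 2.21, where the median of all genes was 0.09. All 17 were in the cortex list, and all 22 were enriched in cortex bound over input, against 6 of 22 in choroid plexus. Slc2a1, the glucose transporter GLUT1 of barrier capillaries, stood at 2856 and 996 TPM in cortex replicates 1 and 2 and at 82.8 and 104 TPM in the choroid plexus replicates. Its cortex libraries differed between themselves as the endothelial markers did, but both lay far above choroid plexus, with a log2 fold change of 3.06 ± 0.46 (SE, edgeR adjusted p 0.00079). Length-corrected it was 4.403, and without cortex replicate 1 it was 2.11. The lysolipid carrier Mfsd2a, which brings omega-3 fatty acids across the barrier and restrains transcytosis, was at 147 and 46.2 TPM in cortex and at 4.01 and 1.15 TPM in choroid plexus. That is a log2 fold change of 5.19 ± 0.45 (adjusted p 4.7e-05, edgeR), and 4.42 without cortex replicate 1.

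Several amino acid and metabolite carriers were higher in cortex. Slc38a5, a glutamine and serine carrier, was at 101 and 38.4 TPM in cortex and below 1 TPM in both choroid plexus libraries, at 0.881 and 0.948 (5.04 ± 0.46, adjusted p 5.9e-05, edgeR), with 6.28 length-corrected and 4.44 without cortex replicate 1. Slc7a5, the large neutral amino acid carrier LAT1, was at 79.8 and 38.5 TPM against 13.4 and 12.7 TPM, and the cationic amino acid carrier Slc7a1 at 74.7 and 24.7 TPM against 8.63 and 5.17 TPM. The log2 fold changes of these 2 carriers were 3.49 ± 0.34 and 2.61 ± 0.39. That of Slc7a5 was 2.23 length-corrected, and that of Slc7a1 ranged from 2.02 to 3.20 when single libraries were left out. Slc16a1, the lactate and ketone carrier MCT1, varied little between replicates, at 60.9 and 48.2 TPM in cortex and 8.52 and 7.05 TPM in choroid plexus (3.21 ± 0.27, adjusted p 4.3e-05, edgeR). Slc35f2 (4.64 ± 0.45), the iron exporter Slc40a1 (4.32 ± 0.54) and the thiamine transporter Slc19a3 (3.35 ± 0.52) were higher in cortex as well. Length-corrected, Slc40a1 was at 5.12 and Slc19a3 at 4.38, and leaving out single libraries gave 4.17 to 5.34 for Slc35f2, 3.73 to 4.98 for Slc40a1 and 2.77 to 4.32 for Slc19a3.

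Organic anion carriers and efflux pumps were also higher in cortex. Slco1a4 was at 716 and 361 TPM in cortex and 76.7 and 101 TPM in choroid plexus, a log2 fold change of 2.37 ± 0.32. P-glycoprotein, encoded by Abcb1a and the main efflux pump for lipophilic drugs, was at 735 and 101 TPM against 23.4 and 35.6 TPM, so that the fold rested on 2 cortex values far apart (2.27 ± 0.35, adjusted p 0.001, edgeR). It was 3.84 length-corrected and 1.67 without cortex replicate 1. The second pump, Abcg2, was at 301 and 126 TPM against 118 and 104 TPM, and its call (1.26 ± 0.27) was lost when cortex replicate 1 was left out or effective length was corrected for. Calls of the thyroid hormone carrier Slco1c1 (1.03 ± 0.31) and of Slc3a2 (1.01 ± 0.27), the heavy chain that partners LAT1, lay just past the 2-fold limit and were lost in 8 of the 11 alternative analyses, although Slco1c1 was at 2.24 and called when length-corrected. The glutamine carrier Slc38a3 was among the genes called the other way, at 110 and 60.9 TPM in cortex and 220 and 240 TPM in choroid plexus (-1.47, and -2.16 without cortex replicate 1). It was not enriched in choroid plexus bound over input (log2 enrichment -0.48), whereas it was in cortex (1.31), and in sorted cells it was called higher in cerebellum than in either pituitary lobe.

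**Figure D2:**
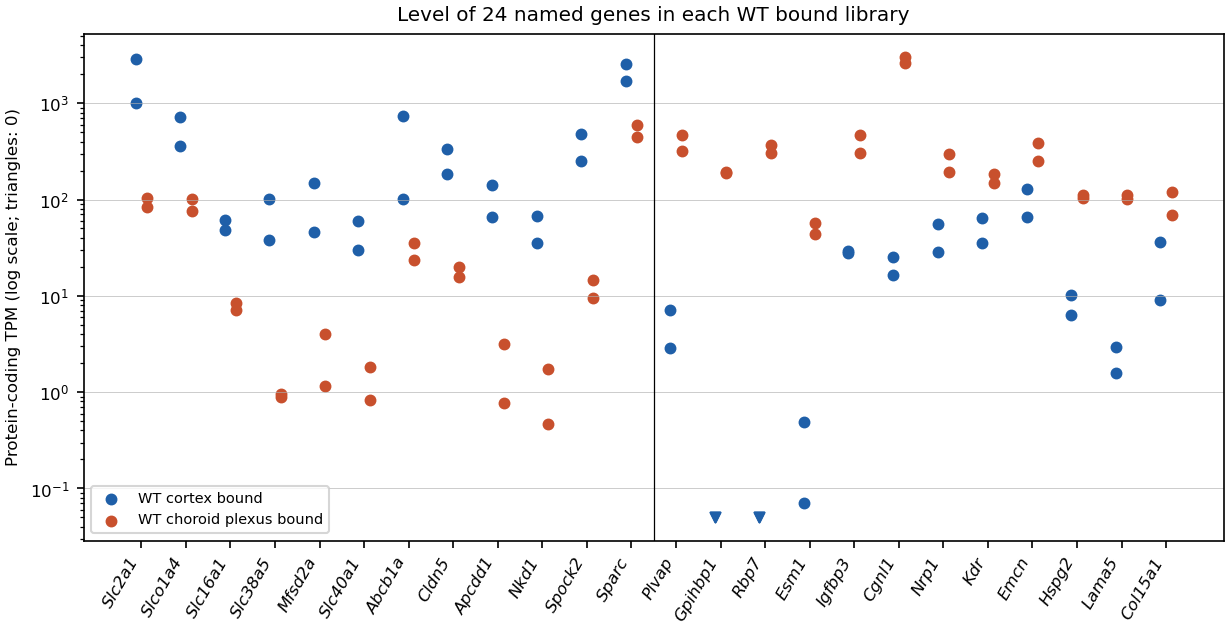
TPM (log axis) of 24 named genes in each of the 4 WT bound libraries, with 12 genes called higher in cortex on the left of the line and 12 called higher in choroid plexus on the right; triangles mark libraries with no counts. No gene shown has overlapping groups, and since only called genes are shown this is no separate result.

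Because the libraries held unequal shares of endothelial mRNA, gene levels were also divided by the summed TPM of the 18 endothelial genes of the same library. This is a description, since 8 of those 18 genes were themselves called between the tissues. Slc2a1 came to 0.819 and 0.714 of the endothelial sum in the cortex libraries and to 0.0337 and 0.0322 in the choroid plexus libraries, so that the gap between the cortex replicates nearly closed. The summed barrier transporters came to 2.27 and 2.42 times the endothelial sum in cortex and to 0.642 and 0.457 times in choroid plexus. Cldn5 stood at 0.0964 and 0.131 against 0.00637 and 0.00618, and Plvap at 0.000826 and 0.00513 against 0.131 and 0.144. The cortex replicates did not come closer for every gene. Plvap (above), Slc16a1 (0.0174 and 0.0346), Igfbp3 (0.00789 and 0.0209) and Hspg2 (0.00183 and 0.00738) were further apart on this scale than in TPM, and Abcb1a stayed apart, at 0.211 and 0.0726 in cortex against 0.00953 and 0.011 in choroid plexus.

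**Figure D3:**
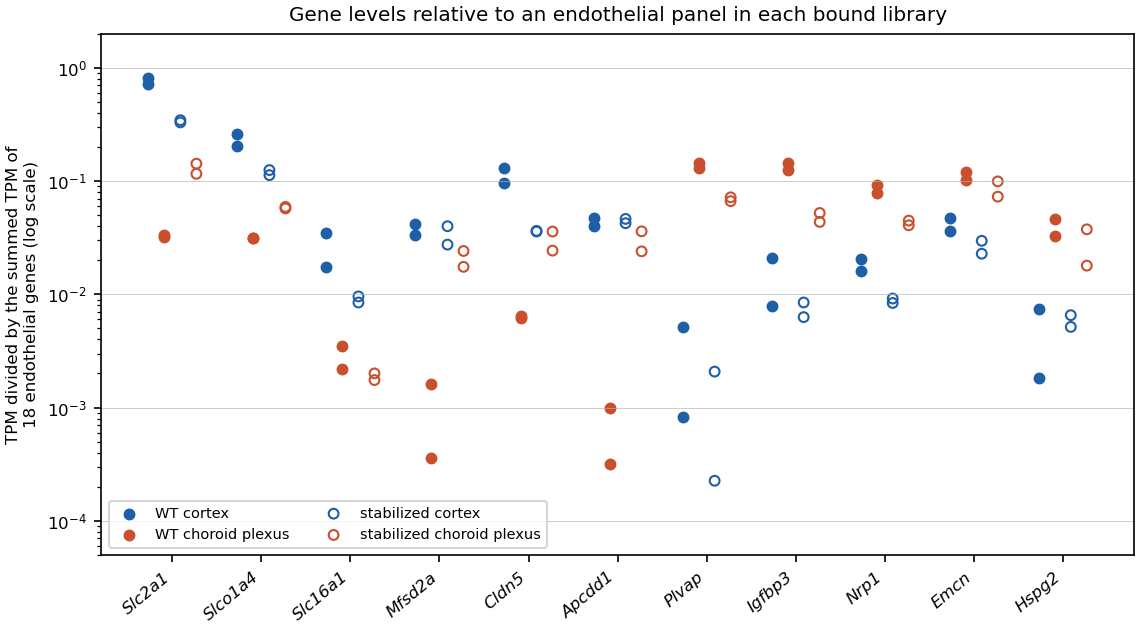
TPM of 11 genes divided by the summed TPM of 18 endothelial genes in the same bound library (log axis), for WT (filled) and beta-catenin stabilized mice (open), cortex in blue and choroid plexus in orange, 2 libraries per group. WT cortex replicates come together for Slc2a1 (0.819 and 0.714), WT tissues are apart for all 11 genes, each of which had been called between them, and the stabilized tissues lie closer for Mfsd2a, Cldn5 and Apcdd1.

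Tight junction genes were mixed. Of 13 tested, 6 were called higher in cortex, 3 higher in choroid plexus and 4 were not called, with a median of 0.83. Cldn5, the claudin that dominates brain endothelial junctions, was at 336 and 182 TPM in cortex and at 15.7 and 19.9 TPM in choroid plexus. The groups were far apart, with a log2 fold change of 2.57 ± 0.30 (adjusted p 0.0002, edgeR) and 3.91 length-corrected. The other 5 genes called higher in cortex lay between 1.03 and 1.10 on the log2 scale: Lsr, a component of tricellular junctions, the scaffold Tjp1 (ZO-1), and the adhesion molecules F11r, Jam2 and Esam. Each of these 5 calls was lost in at least 5 of the 11 alternative analyses, and that of Esam turned to -0.40 length-corrected, where F11r was at 2.16 and Jam2 at 0.50. Ocln, which encodes occludin, was not called, at 145 and 86.2 TPM against 85.3 and 31.9 TPM, but it was enriched in cortex bound over input (4.33) and lower in choroid plexus bound than in its input (-1.15).

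In the choroid plexus direction, Cgnl1 and Cgn, which encode the junction plaque proteins paracingulin and cingulin, led the list. Cgnl1 reached 3031 and 2605 TPM in choroid plexus and 25.3 and 16.3 TPM in cortex (-5.22 ± 0.37, adjusted p 1.7e-05, edgeR; -7.03 length-corrected). It was enriched over input in choroid plexus (log2 2.23), yet its inputs there were already at 328 and 288 TPM, and in sorted cells it was higher in cerebellum than in either pituitary lobe (1.45 and 1.63). Cgn stood at 55 and 62.2 TPM against 0.844 and 3.97 TPM and was not called enriched over input in either tissue. Jam3 (-1.68 ± 0.40) was the third, and its call was lost length-corrected (-0.79). Cgn was at -3.59 and -5.95 without cortex replicates 1 and 2.

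Of the 8 genes for the fenestral diaphragm and caveolae, 3 were called higher in choroid plexus, none higher in cortex and 5 were not called, with a median of -0.55. Plvap, whose product forms the diaphragms of fenestrae and is absent from mature barrier capillaries, was at 2.88 and 7.16 TPM in cortex and at 322 and 464 TPM in choroid plexus. The 2 groups lay far apart, at a log2 fold change of -7.21 ± 0.93 (adjusted p 0.00035, edgeR), with -6.20 length-corrected and -8.18 without cortex replicate 2. Plvap was enriched over input in choroid plexus (3.96) and not called in cortex (1.10). The coat genes of caveolae were not called: Cav1 was at 97.7 and 77.6 TPM against 121 and 60.6 TPM, and Cav2 at 56.8 and 45.3 TPM against 20.8 and 43 TPM. Cavin2 (-1.05 ± 0.34) and Cavin3 (-1.69 ± 0.51) were called, and each call was lost in at least 4 of the 11 alternative analyses.

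Among the 8 genes of peripheral capillaries and lipid uptake, 3 were called higher in choroid plexus and 2 in cortex. Gpihbp1, the endothelial anchor that carries lipoprotein lipase to the capillary lumen, had no counts in either cortex library and was at 192 and 190 TPM in choroid plexus. Its level was at least 396-fold higher in choroid plexus, taking 3 counts per library as the lowest level the cortex libraries could show. Rbp7, a retinol-binding protein of peripheral capillaries, was also at 0 in both cortex libraries and at 305 and 368 TPM in choroid plexus, at least 441-fold higher. Both were enriched over input in choroid plexus (log2 4.12 and 3.98). The water channel Aqp1 was at 53.8 and 41.3 TPM in choroid plexus and at 5.65 and 0 TPM in cortex, its call was lost length-corrected, and it was not enriched over choroid plexus input (-1.50), a tissue whose epithelium uses it. Fabp4, a lipid chaperone of peripheral capillaries, was at 1.66 and 2.06 TPM in choroid plexus and 0 and 0.159 TPM in cortex, a ratio of 21.8 with a counting interval (95%) of 3.02 to 956, and was not called. Car4, a luminal carbonic anhydrase, was called higher in cortex, at 657 and 353 TPM against 105 and 109 TPM (1.85 ± 0.32), as was Fabp5, whose call was lost in 5 of the 11 alternative analyses. The locations of 4 of the genes described are, in the GRCm38 annotation, chr4:119108711-119137983 for Slc2a1, chr16:18776847-18778262 for Cldn5, chr8:71497765-71511752 for Plvap and chr15:75596628-75599481 for Gpihbp1.

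Targets of canonical Wnt signaling were split by gene. Of the 9 tested, 5 were called higher in cortex, 1 higher in choroid plexus and 3 were not called, with a median of 1.64. Apcdd1, a Wnt antagonist induced by Wnt itself, was at 141 and 65.9 TPM in cortex and at 0.779 and 3.2 TPM in choroid plexus (5.28 ± 0.59, adjusted p 0.00016, edgeR). Nkd1, a feedback inhibitor that binds Dishevelled, was at 68 and 35.2 TPM against 0.466 and 1.75 TPM (4.38 ± 0.50, and 5.58 length-corrected). Leaving out single libraries gave 4.54 to 6.60 for Apcdd1 and 3.72 to 5.59 for Nkd1. Notum, the enzyme that strips the lipid from Wnt ligands, was at 13 and 7.87 TPM in cortex and at 0 in both choroid plexus libraries, at least 21.5-fold higher in cortex. Tcf7 (2.55 ± 0.56, with 3.76 length-corrected and 1.59 without cortex replicate 1) and Tnfrsf19 (1.64 ± 0.30) followed these 3 feedback genes.

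Other targets did not share that pattern. Lef1, the TCF/LEF factor that Wnt induces in brain ECs, was at 58.9 and 44.5 TPM in cortex and at 91.7 and 37 TPM in choroid plexus, so that the groups overlapped (0.60 ± 0.35, adjusted p 0.22, edgeR). The mean TPM was the higher one in choroid plexus, and the length-corrected log2 fold change was -0.25. It was enriched over input in cortex (2.92) and not called in choroid plexus (0.15). Axin2, the most widely used Wnt target, was called higher in choroid plexus, at 35.8 and 27.5 TPM against 25.9 and 18.1 TPM in cortex (-1.55 ± 0.25). It was enriched over input in neither tissue (0.48 and -0.11), and with effective length corrected for its log2 fold change was -0.46 and no longer called. Among 10 receptors and mediators, Fzd6 (1.11 ± 0.25) and the co-receptor Adgra2 (1.20 ± 0.42) were called higher in cortex, while Tcf7l1 (-3.17 ± 0.44), which represses Wnt targets, and the co-receptors Lrp5 (-1.27 ± 0.27) and Lrp6 (-1.53 ± 0.22) were called higher in choroid plexus. Tcf7l1 was at -4.20 length-corrected, at 31.4 and 41.1 TPM there and at 1.57 and 2.16 TPM in cortex, and of the 3 only Tcf7l1 was also enriched over input in choroid plexus. The calls of Fzd6, Adgra2, Lrp5 and Lrp6 were lost length-corrected, and that of Adgra2 in 8 of the 11 alternative analyses, with 0.25 without cortex replicate 1. Fzd4 and Ctnnb1, beta-catenin itself, were not called (-0.84 ± 0.31 and 0.13 ± 0.24), with Ctnnb1 at -0.61 length-corrected.

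To show where TCF/LEF factors could bind, the promoters of the listed genes were searched in RefSeq sequence (build GRCm38.p6, 250 bases before to 50 after each start) for CTTTGAA and CTTTGAT on both strands. The motif was present for 811 of 11296 tested genes with a promoter (7.18%), for 27 of 263 genes of the cortex list (10.3%) and for 23 of 314 of the choroid plexus list (7.32%). Among list genes also higher in sorted GFP-positive cells it was present for 12 of 72 (16.7%) and 6 of 92 (6.52%). Of 7 Wnt targets with a promoter, 2 held it, Sp5 and Tnfrsf19. Genes with several starts had several windows, on average 1.38 per gene in the cortex list and 1.25 in the choroid plexus list. The promoters of Abcb1a, Slc7a1 and Spock2 are printed because each of these genes was higher in cortex and in sorted ECs and holds the motif. They were chosen after their values were seen. Capitals mark the motif on either strand. The windows are chr5:8566841-8567140 (plus strand) for Abcb1a, chr5:148392766-148393065 (minus strand) for Slc7a1 and chr10:60106007-60106306 (plus strand) for Spock2.
Abcb1a: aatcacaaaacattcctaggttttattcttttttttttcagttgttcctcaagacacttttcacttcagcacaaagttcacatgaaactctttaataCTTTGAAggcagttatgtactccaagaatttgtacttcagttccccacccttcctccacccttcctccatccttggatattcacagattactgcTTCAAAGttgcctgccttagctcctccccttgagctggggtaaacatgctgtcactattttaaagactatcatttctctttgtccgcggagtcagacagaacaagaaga
Slc7a1: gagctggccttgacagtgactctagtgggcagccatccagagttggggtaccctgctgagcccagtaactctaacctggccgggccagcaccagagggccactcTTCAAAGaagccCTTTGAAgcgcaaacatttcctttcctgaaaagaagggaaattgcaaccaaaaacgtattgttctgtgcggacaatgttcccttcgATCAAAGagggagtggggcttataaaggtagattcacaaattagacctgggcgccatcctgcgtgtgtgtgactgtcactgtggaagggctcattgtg
Spock2: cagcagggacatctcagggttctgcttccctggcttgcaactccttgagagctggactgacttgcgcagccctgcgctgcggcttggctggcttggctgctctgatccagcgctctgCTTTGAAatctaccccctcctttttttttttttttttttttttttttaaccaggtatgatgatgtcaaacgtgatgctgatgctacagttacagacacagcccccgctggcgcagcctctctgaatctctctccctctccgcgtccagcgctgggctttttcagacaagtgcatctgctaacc
The motifs begin 153 and 59 bases upstream of the start in Abcb1a, 146, 134 and 48 bases upstream in Slc7a1 (at 1 of its 2 starts), and 133 bases upstream in Spock2. A match describes these letters only. Spock2, a matrix proteoglycan, was at 484 and 254 TPM in cortex and at 14.6 and 9.38 TPM in choroid plexus (5.18 ± 0.38, adjusted p 2e-05, edgeR).

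Transcription factors are read beside the 17.8% and 14.7% of all genes called in the 2 directions. Of the 9 factors linked to the barrier, 2 were called, both higher in cortex: Foxq1, a forkhead factor of brain ECs, at 12.9 and 8.08 TPM against 0.671 and 1.45 TPM (2.83 ± 0.38), and Tcf7. Of those not called, Foxf2, Foxc1 and Foxl2 were at 0.59, 0.66 and 0.31. Length-corrected, 4 of the 9 were called higher in cortex, with Foxf2 at 1.91 and Foxc1 at 1.495 added. Of 14 general endothelial factors, 3 were called higher in cortex (Hhex, Fli1 and Ets1, each lost in at least 3 of the 11 alternative analyses) and 2 higher in choroid plexus. Sox18, which acts in endothelial and lymphatic specification, was at 34.6 and 67.7 TPM in choroid plexus and at 18.4 TPM in both cortex libraries (-2.88 ± 0.34, adjusted p 0.00022, edgeR; -1.41 length-corrected). The venous factor Nr2f2 (-1.71 ± 0.25) was not enriched over input in choroid plexus, and its call was lost length-corrected.

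Genes common to all ECs leaned toward choroid plexus. Of 18 tested, 7 were called higher there, 1 (Esam) higher in cortex and 10 were not called, with a median of -0.76. The VEGF receptor Kdr was at 147 and 184 TPM in choroid plexus and at 63.9 and 35.4 TPM in cortex (-1.68 ± 0.30). The sialomucin Emcn was at 254 and 390 TPM against 127 and 65.3 TPM (-1.65 ± 0.31), and the lectin Clec14a at 34.4 and 40.1 TPM against 11.3 and 9.01 TPM (-1.54 ± 0.24). Eng, Tie1, Egfl7 and Ecscr were the other 4, between -1.02 and -1.59, and all 4 calls were lost when effective length was corrected for, Egfl7 turning to 0.12. Pecam1 (-0.64 ± 0.36), Tek (0.22 ± 0.34) and Flt1 (0.03 ± 0.39) were not called. Length-corrected, 3 of the 18 were called higher in choroid plexus and 1 in cortex, Flt1 at 1.39, and Tek was at 0.94.

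In the VEGF and apelin list of 13 genes, 5 were called higher in choroid plexus and 1 in cortex. The ligand Vegfa was at 194 and 198 TPM in choroid plexus bound and at 28.1 and 26.8 TPM in cortex bound (-3.07 ± 0.32), but it was enriched over input in neither tissue. On the receptor side Kdr, the lymphatic receptor Flt4 (-2.09 ± 0.38, and -2.70 without cortex replicate 1) and the co-receptor Nrp1 were higher in choroid plexus and enriched over its input. Nrp1, at 195 and 296 TPM against 56.2 and 28.7 TPM, changed by -2.44 ± 0.34 (adjusted p 0.00056, edgeR). Esm1, a secreted proteoglycan that VEGF induces in ECs, was at 43.4 and 56.9 TPM in choroid plexus and at 0.491 and 0.0701 TPM in cortex (-8.41 ± 0.68, adjusted p 3.1e-05, edgeR), with -7.48 length-corrected and -9.97 without cortex replicate 1. Apln, the ligand of the apelin receptor, was higher in cortex, at 6.02 and 9.06 TPM against 0.132 and 0.28 TPM.

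Of 14 basement membrane genes 9 were called higher in choroid plexus and 2 higher in cortex, with a median of -1.37. Length-corrected these were 6 and 1. The 7 fibroblast markers summed to 106 and 93.3 TPM in choroid plexus bound and to 45.8 and 34.3 TPM in cortex bound. Of the 6 tested, 5 were called higher in choroid plexus (median -2.80), and 1 length-corrected. Of 10 mural cell markers 3 were called higher there, 1 length-corrected, and 0 in cortex. The part of these cells in the matrix genes was not tested. The heparan sulfate proteoglycan Hspg2 (perlecan) was at 113 and 105 TPM in choroid plexus and at 6.39 and 10.3 TPM in cortex (-4.18 ± 0.26, adjusted p 8.8e-06, edgeR). Lama5, the laminin chain that stiffens vessel walls, was at 102 and 112 TPM against 1.58 and 2.93 TPM (-4.06 ± 0.35, and -5.49 length-corrected). Col15a1, a collagen of peripheral capillaries, was at 68.3 and 121 TPM against 36.4 and 9.15 TPM (-2.98 ± 0.38), a call that was lost length-corrected (-2.035). These 3, with Col4a2 and Lamb2, were enriched over choroid plexus input, whereas Lamb1 (-5.09), Nid1 (-1.54), Nid2 (-3.90) and Col18a1 (-3.50) were not. The calls of Col4a2 and Lamb2 were each lost in 6 of the 11 alternative analyses, and Lamb1, Nid1 and Nid2 were at -5.94, -2.23 and -5.16 length-corrected. Leaving out single libraries gave -3.06 to -4.395 for Col18a1. In the cortex direction stood Sparc, a collagen-binding matricellular protein, at 2535 and 1685 TPM against 449 and 596 TPM (2.29 ± 0.29), and Agrn (1.12 ± 0.29), whose call was lost length-corrected.

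The next lists are short. Their counts are read beside the 17.8% of all genes called higher in cortex and 14.7% higher in choroid plexus. Of 6 IGF binding proteins 3 were higher in choroid plexus, and Igfbp3 was the one among them that was also enriched over input there, at 305 and 466 TPM against 27.5 and 29.2 TPM (-4.63 ± 0.31, and -3.70 length-corrected), and the median of the 6 was -1.18. Igfbp2 (-7.06, and -6.27 length-corrected) was lower in bound than in input in both tissues. Of 14 BMP and TGF-beta genes 4 were called higher in choroid plexus (Bmp6, Tgfbr3, Smad6 and Eng, of which Smad6 and Eng were lost length-corrected) and 2 higher in cortex (Tgfbr1 at 3.22 ± 0.26 and Smad1 at 2.77 ± 0.36). Tgfbr1, in the cortex list, was not called in sorted GFP-positive over GFP-negative cells of any of the 3 regions. Of 9 venous and adhesion genes 4 were called higher in choroid plexus, Ackr1 was called higher in cortex, and the median of the 9 was -1.71. Among the 4, the venous receptor Ephb4 was at 19.4 and 26.9 TPM against 7.94 and 2.58 TPM (-2.17 ± 0.47, and -3.12 without cortex replicate 1). Length-corrected, 2 of the 9 were called higher in choroid plexus and 1 in cortex, and the call of Vcam1 was lost. Without choroid plexus replicate 1 the calls of Ackr1 and Sele were lost. Notch and arterial genes gave 1 call in each direction among 14, Hey1 and Hey2, and both calls were lost length-corrected. Of 10 receptors for transcytosis, Tfrc, the transferrin receptor, was higher in cortex, at 57.8 and 45.4 TPM against 19.5 and 3.79 TPM (2.59 ± 0.46, and 2.15 to 3.24 leaving out single libraries), a call lost length-corrected. The leptin receptor Lepr (120 and 123 TPM against 6.15 and 10.1 TPM) and the lipoprotein receptor Scarb1 (-1.44) were higher in choroid plexus, of which Scarb1 was enriched over its input.

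**Figure D4:**
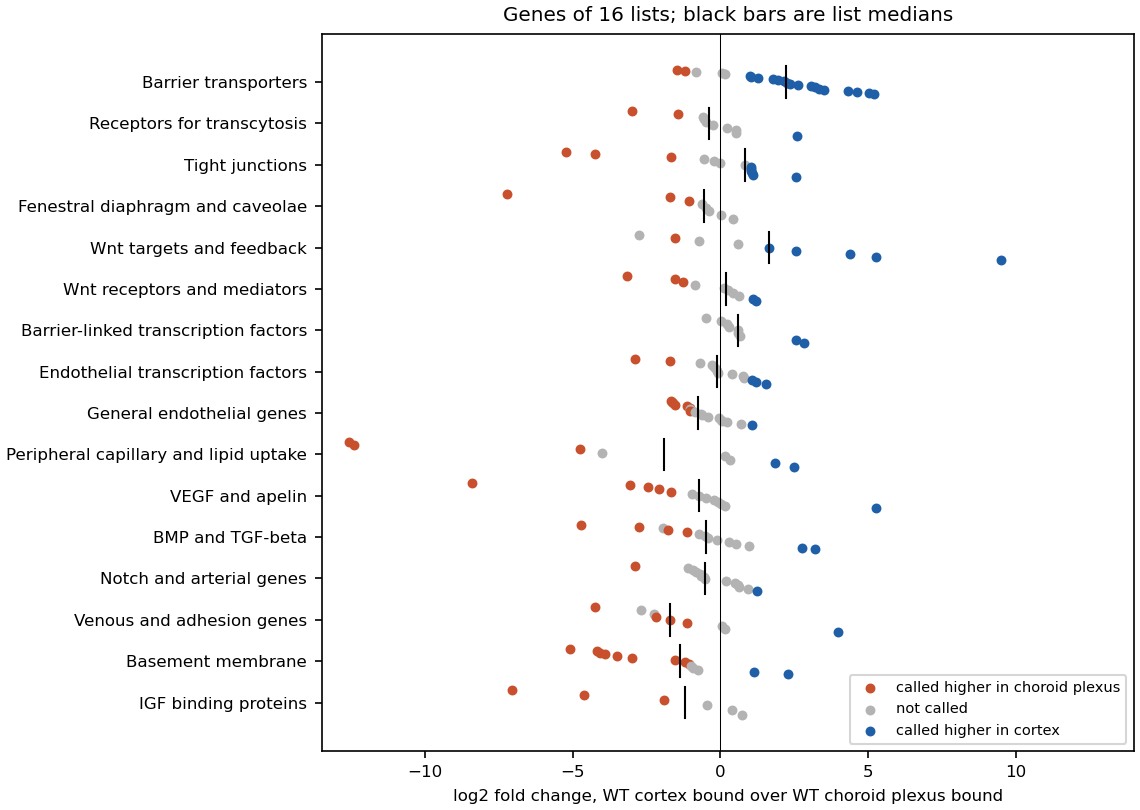
Log2 fold change of WT cortex bound over WT choroid plexus bound for each gene of 16 lists; blue and orange mark genes called in either direction, grey genes that were not called, and black bars the list medians. The barrier transporters sit to the right (median 2.21) and the basement membrane genes to the left (median -1.37).

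The tissue difference in bound was next set against that in input, to ask for which genes it exceeded the difference between the whole tissues. Toward cortex 1720 of 15183 genes (11.3%) passed this test of the interaction, and toward choroid plexus 620 (4.08%). With DESeq2 these counts were 1383 and 1207. Of the 22 barrier transporters 17 passed toward cortex and none toward choroid plexus, with a median of 2.14, and of the 18 general endothelial genes 7 passed toward cortex. Of the 8 fenestral and caveolae genes 4 passed toward cortex and 1, Plvap (-2.86), toward choroid plexus, and of the 14 basement membrane genes 6 passed toward cortex and none toward choroid plexus. Esm1 (-4.08) and Igfbp3 (-1.79) also passed toward choroid plexus. Endothelial markers made a larger share of the mRNA in choroid plexus input than in cortex input (224 and 194 against 126 and 85.8 TPM), and this measure is read relative to that.

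Sorted cells gave a measure of endothelial origin that the pull-down does not use. In Tie2-GFP mice, 5.72% of genes were called higher in GFP-positive than in GFP-negative cells of the cerebellum, 7.01% in the anterior pituitary and 8.86% in the posterior pituitary. Of the 335 cortex list genes 97 were among those of the cerebellum and 25 were called the other way. Of the 404 choroid plexus genes 118 were among those of either pituitary lobe (10.5% of all genes) and 18 were called the other way in at least 1 of them. Of the 97, 52 exceeded the input difference toward cortex and 1 toward choroid plexus, and of the 118, 26 exceeded it toward choroid plexus and 17 toward cortex, with a median of -0.25. Both lists were filtered on bound over input in the tissue where a gene was higher, which is a part of this difference. The direction of these counts is therefore not independent of the filter. The cortex list held 8 of the 9 microglia and macrophage markers (Cx3cr1, P2ry12, Tmem119, Csf1r, Aif1, C1qa, C1qb and Ptprc) and the choroid plexus list the ninth, Mrc1. Outside those markers, the choroid plexus list also held the MHC class II genes H2-Aa (-8.06), H2-Ab1 (-4.495) and H2-Eb1 (-4.01), and Lyz2 (-1.925). None of them was among the 118, and the cells they came from were not tested. Neither list held any marker of neurons, astrocytes, oligodendrocytes, choroid plexus epithelium, ependyma, mural cells, fibroblasts or erythrocytes. Both lists require enrichment over input, which 0 of 10 neuronal markers passed in cortex and 0 of 10 epithelial markers in choroid plexus. The absence of these 2 sets was thus set by the filter and is no measure of purity.

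The genes with the largest differences reflect this split. By rule, the 15 largest in the cortex list were Gal3st4, Clec4a2, Lag3, Gm49369, P2ry13, Srarp, Gpr165, Crybb1, P2ry12, Apcdd1, Pglyrp1, Mfsd2a, Spock2, Cd53 and Slc38a5, with log2 fold changes of 5.04 to 6.95. Several of these values rest on choroid plexus libraries near 0. Without choroid plexus replicate 1 Gal3st4 was at 11.14, Clec4a2 at 9.67 and Lag3 at 8.72, and without replicate 2 Gm49369 was at 12.97, Crybb1 at 11.97, Srarp at 10.58 and Pglyrp1 at 8.34, so their order is not fixed by these data. Among them P2ry12 and P2ry13, purinergic receptors of microglia, were at 884 and 652 TPM and at 171 and 158 TPM in cortex. Only 6 of the 15 were among the 97: Srarp, Apcdd1, Pglyrp1, Mfsd2a, Spock2 and Slc38a5. In the choroid plexus list the 15 largest were Rbp7, Gpihbp1, Gm10718, Gm49450, Sap25, Cfap43, Gm21962, Gm10715, Lrrc23, Gm10722, Lca5l, Cfap44, Gm10717, Ces2e and Dnah11, from -8.94 to -12.57, and 3 of them (Rbp7, Gpihbp1 and Ces2e) were among the 118. Fitted values of this size rest on cortex libraries at or near 0. Cfap43, Cfap44 and Dnah11 belong to motile cilia. Of 153 tested genes named Cfap, Dnah, Ccdc or Spef, 67 were called higher in choroid plexus and 3 in cortex. Of all genes, 14.7% and 17.8% were called in these directions. The choroid plexus list held 14 of the 153, where it held 2.78% of all genes, and 0 were among the 118. These genes were grouped by name alone and are no fixed list of cilia genes. Of 251 tested models numbered Gm, 20 were in the choroid plexus list. These models may share reads with similar copies and are uncertain.

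Within the 97 and the 118, further carriers and matrix genes stood out, named here after their values were seen. In cortex they included Itm2a, a membrane protein, at 649 and 389 TPM against 32 and 56.4 TPM (2.74 ± 0.34, and 3.60 length-corrected), and the riboflavin carrier Slc52a3 at 31.3 and 18.4 TPM against 2.63 and 2.49 TPM (2.73 ± 0.45, and 3.32 length-corrected). In both genes the groups were apart. In choroid plexus they included Slc43a3, a purine base carrier, at 46.9 and 81.8 TPM against 0.403 and 0.506 TPM (-7.05 ± 0.62, and -6.33 without choroid plexus replicate 2), and Col13a1, a transmembrane collagen, at 50.7 and 87.4 TPM against 2.38 and 1.41 TPM (-6.12 ± 0.42, and -5.135 length-corrected). The mechanosensitive channel Piezo2 was at 10.1 and 27.5 TPM against 0.34 and 0.0584 TPM (-7.03 ± 0.95, and -8.06 without cortex replicate 1). The immunoglobulin-like Cd300lg was at 62.7 and 128 TPM against 3.85 and 0.226 TPM (-5.93 ± 0.89, and -8.94 without cortex replicate 1). Cd74, the invariant chain of MHC class II, was at 224 and 337 TPM against 7.1 and 16.3 TPM (-4.61 ± 0.48, and -5.48 without cortex replicate 2), and was lower in GFP-positive than in GFP-negative cells in cerebellum and anterior pituitary.

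The same tissue contrast in stabilized mice compared no WT libraries, although the fit took its spread and its filter from all 8 bound libraries. There, 1393 genes (9.57%) were called higher in cortex and 1078 (7.4%) higher in choroid plexus, and in a fit of the 4 stabilized libraries alone, added after seeing the data, 1435 and 1208. Of the cortex list 152 of 335 were called in the same direction and 1 in the other (45.4% of the list, 10.9% of the stabilized calls), and of the choroid plexus list 179 of 404 and 2 (44.3% and 16.6%). Split by sorted cells, 21 of the 97 and 131 of the other 238 cortex genes were called higher in stabilized cortex, with medians of 0.52 and 1.55, whereas 61 of the 118 and 118 of the other 286 choroid plexus genes were called higher in stabilized choroid plexus, with medians of -1.35 and -1.09. Stabilization changes ECs, so a gene that is not called there may differ by genotype as well as by set of libraries. Which of these applied was not tested.

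Genes higher in choroid plexus were in part called in these mice too. Of the 8 fenestral and caveolae genes 2, Plvap and Cavin3, were called higher in stabilized choroid plexus, and of the 14 basement membrane genes 8. Endothelial markers made a larger share here than in WT, the 18 genes summing to 6409 and 5852 TPM in cortex and 6297.5 and 5417 TPM in choroid plexus. Divided by that sum, choroid plexus Plvap was 0.131 and 0.144 in WT and 0.0719 and 0.0665 in stabilized mice. Nrp1 was 0.0792 and 0.0917 in WT and 0.0448 and 0.0407 in stabilized mice. In TPM, Plvap was at 1.45 and 12.2 in stabilized cortex and at 453 and 360 in stabilized choroid plexus (-5.83), Esm1 at 0 and 0.238 TPM against 60 and 61.9 TPM (-8.65), and Nrp1 at 53.8 and 53.7 TPM against 282 and 220 TPM (-2.35). All 3 were called, and none was called in the test of the difference between genotypes. Igfbp3, Hspg2 and Lama5 were called in stabilized mice (-2.69, -2.36 and -1.74) and in that test as well, their WT value minus the stabilized one being -1.94, -1.81 and -2.32. Of the 22 barrier transporters 8 were called higher in stabilized cortex and 1 lower, and 4 were called in the test between genotypes, all with the higher value in WT, where 1.17% of all genes were called in that direction and 0.797% in the other. Slc16a1 stayed apart, at 61.4 and 49.6 TPM in stabilized cortex against 12.6 and 9.48 TPM (2.23, called), as did Slc22a8 (2.38) and Slco2b1 (1.53). The others varied. Mfsd2a was at 176 and 234 TPM against 110 and 131 TPM (0.67, not called), Apcdd1 at 297 and 249 TPM against 151 and 195 TPM (0.57, not called) and Cldn5 at 233 and 210 TPM against 153 and 194 TPM (0.38, not called). For these 3 the WT difference exceeded the stabilized one by 4.52 ± 0.56, 4.72 ± 0.73 and 2.19 ± 0.40 (adjusted p 0.01, 0.0211 and 0.032, edgeR interaction). Slc2a1 lay between, at 2113 and 2018 TPM against 731 and 772 TPM (1.18), and its interaction of 1.88 was not called.

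**Figure D5:**
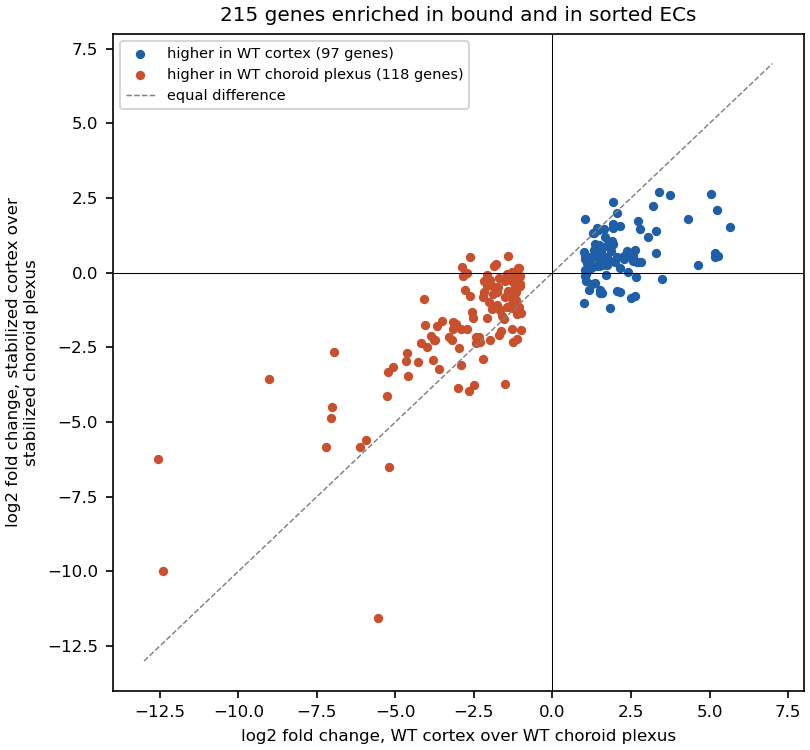
Log2 fold change of cortex over choroid plexus in stabilized mice (vertical) against that in WT mice (horizontal) for the 97 cortex list genes and 118 choroid plexus list genes that were also higher in sorted GFP-positive ECs; the dashed line marks equal differences. Of the cortex genes 79 of 97 lie above 0 in stabilized mice (median 0.52), and of the choroid plexus genes 110 of 118 lie below 0 (median -1.35).

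Sorted ECs of WT cerebellum and pituitary gave a second pair of barrier and permeable vessels, purified another way. Cerebellum was called higher than anterior pituitary for 586 of 14603 genes (4.01%) and lower for 422 (2.89%), and higher than posterior pituitary for 443 (3.03%) and lower for 407 (2.79%). Both contrasts share the cerebellum libraries. The fit also held 6 stabilized libraries, for 1 of which the labels disagree on the lobe. With the 6 WT libraries alone the counts were 370 and 341 against anterior pituitary and 266 and 333 against posterior pituitary, where the balance turned. Of 22 barrier transporters 20 were higher in cerebellum than in anterior pituitary and 21 than in posterior pituitary, with none called the other way. Slc2a1 was at 2649 and 3192 TPM in cerebellum, at 21.5 and 32 TPM in anterior pituitary and at 32.4 and 53.4 TPM in posterior pituitary. Of the Wnt targets 7 of 10 were higher in cerebellum in each contrast, with Axin2 (4.31 and 5.76) and Lef1 (7.13 and 6.77) among them, unlike in the bound fractions. Lef1 was at 262 and 235 TPM in cerebellum and at 0 and 8.19 TPM in anterior pituitary. Of the barrier-linked factors 8 and 7 of 9 were higher in cerebellum, where 2 of 9 were in cortex.

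In the fenestrated direction the calls differed between lists. Of the 8 genes of peripheral capillaries and lipid uptake, 3 were called higher in anterior and 6 in posterior pituitary, with 2 and 1 higher in cerebellum. Of 5 IGF binding proteins tested, 3 and 4 were called higher in the respective lobe and 0 in cerebellum. Of the 8 fenestral and caveolae genes 2 were called higher in anterior pituitary and 1 in cerebellum, and 3 higher in posterior pituitary with none in cerebellum. Of the 14 basement membrane genes 2 were called higher in each lobe, with 3 and 1 higher in cerebellum, unlike the 9 against 2 of the bound fractions. Plvap was at 0 and 21 TPM in cerebellum, at 1677 and 1974 TPM in anterior pituitary and at 1783 and 2389 TPM in posterior pituitary (-7.43 and -7.38). Gpihbp1 (-6.58 and -8.04), Igfbp3 (-5.62 and -5.95), Col15a1 (-6.67 and -6.60) and Hspg2 (-2.03 and -3.01) were also higher in both pituitary lobes. Lama5 (0.70 and -0.79) was called in neither contrast and Rbp7 in the posterior lobe alone (-3.11 and -9.86). Of the whole cortex list 81 of 334 tested genes were higher in cerebellum than in anterior pituitary and 19 lower, and of the whole choroid plexus list 53 of 397 were higher in anterior pituitary and 19 lower. Against posterior pituitary these counts were 70 and 16, and 67 and 7. Among the 97 cortex genes also higher in sorted cells, 62 were higher in cerebellum than in anterior pituitary and 57 than in posterior pituitary. Among the 118 choroid plexus genes, 45 and 60 were higher in the respective lobe. The choice of the 97 and the 118 used these GFP-positive libraries, so the last 4 counts are not independent of it.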

How the data were processed

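RNA was amplified, sequenced single-end, and quantified by the authors with Salmon (version 0.10.2) against GRCm38 transcripts, per the labels and the study's methods. The deposited tables give, per transcript, an estimated count, a TPM and an effective length, computed by the authors. Estimated counts and TPM were summed per gene over 49585 genes, 402 of 130740 transcripts matched no gene in the annotation (0.119% to 0.207% of WT bound counts), and 21885 protein-coding genes were kept. TPM was rescaled to 1000000 over these genes. Counts were rounded and tested in R 4.3.3 with edgeR 4.0.16 (TMM, filterByExpr, quasi-likelihood test, 1 coefficient per group, Benjamini-Hochberg over all genes tested), since the study's own test program was not at hand. The 8 bound libraries gave the tissue contrasts (14558 genes), the 16 RiboTag libraries bound over input (15183), the 12 sorted GFP-positive libraries cerebellum over pituitary (14603) and 12 WT sorted libraries GFP-positive over GFP-negative (15309). A call needed an adjusted p below 0.05 and a 2-fold difference. The SE given after ± is the absolute log2 fold change divided by the square root of its F statistic. It stands in for a standard error, which edgeR's quasi-likelihood test does not give. With 2 against 2 libraries an exact test cannot go below p = 0.333, so no test was made without pooling the spread over genes.

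Named genes are those of the fixed lists and, in each direction, the 15 EC-enriched genes with the largest difference and no overlap between groups; others are named as chosen after their values were seen. The members and lists were chosen with earlier results of these data known. Replicate numbers did not pair cortex with choroid plexus (correlation of deviations -0.017). An input is an aliquot of its bound sample's homogenate, which pairs those. Intervals and floors (3 counts per library) cover counting error only. Alternatives were DESeq2 1.42.0, RLE normalization, no filter, a replicate block, the 4 WT bound libraries alone, all biotypes, a correction for effective length, and leaving out each library.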

Additional observations from a re-analysis of the deposited data

Results flagged for a closer look

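The cortex to choroid plexus difference itself differed between WT and stabilized mice for 31 named genes, by edgeR's test of the interaction with genotype (8 bound libraries, adjusted p 0.0012 to 0.049). Values are the WT log2 difference minus the stabilized one. Since the WT cortex libraries also stand apart in coding share and effective length, the part of the set of libraries in these differences was not tested. WT and stabilized choroid plexus bound lay closer in coding share, at 26.2% and 26.6% against 24.6% and 22.7% of TPM. Divided by the endothelial sum, Mfsd2a was 0.00163 and 0.000355 in WT choroid plexus and 0.0175 and 0.0241 in stabilized choroid plexus. Apcdd1 was 0.000317 and 0.000992 against 0.0240 and 0.0360 there, and Cldn5 0.00637 and 0.00618 against 0.0243 and 0.03585. In cortex the genotypes overlapped for Mfsd2a and Apcdd1 but not for Cldn5.

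Of 22 carriers of the barrier 4 had a larger difference in WT: Mfsd2a 4.52, Slc7a5 3.69, Slc35f2 4.38 and Slc3a2 1.79. Over all genes 1.17% were called in that direction and 0.797% in the other. The other 18 carriers were not called, among them Slc22a8 at 1.94 in WT and 2.38 in stabilized mice and Slco1c1 at 1.03 and 1.79. Slc7a5, one of the 4 called, went from 3.49 in WT to -0.20 in stabilized mice. Of 9 Wnt targets and feedback genes 3 had a larger difference in WT and 6 were not called. The 3 were Apcdd1 4.72, Nkd1 3.89 and Notum. The fitted value for Notum, 8.0, rests on WT choroid plexus libraries with no counts, so its size depends on the prior count and is no measure of the difference. A larger difference toward cortex in WT was also seen for Cldn5 2.19, Spock2 4.65, Net1 2.65, Itm2a 2.38, Gpcpd1 2.45 and Aqp11 2.35. Others with a larger difference toward cortex in WT were Apln 5.66, Gal3st4 5.27 and Cd53 2.48, of which Cd53, a leukocyte tetraspanin, and Gal3st4 were not higher in sorted GFP-positive cells.

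Toward choroid plexus, WT exceeded stabilized mice for Lama5 -2.32, Hspg2 -1.81, Igfbp3 -1.94 and Sox18 -3.06. Sox18 went from -2.88 to 0.18. The same sign was seen for Cfap43 -4.24, Cfap44 -3.21, Lca5l -5.98, Sap25 -8.98 and Iqgap1 -1.70, and for the numbered models Gm10718 -9.58, Gm49450 -12.78, Gm21962 -8.76, Gm10717 -6.26 and Gm10801 -4.32. Of these, Sap25, Gm10718 and Gm49450 had no counts in either WT cortex library, so their sizes are no measure of the difference either. Without cortex replicate 1 the WT value moved from -10.88 to -13.28 for Cfap43, from -9.35 to -10.98 for Lca5l and from -9.055 to -10.7 for Gm10717. It also moved from -6.97 to -8.4 for Gm10801, and without cortex replicate 2 from -10.44 to -13.27 for Gm21962. The sizes for these genes are uncertain as well. Igfbp5 was not called in WT (0.40) and was -2.52 in stabilized mice, a difference of 2.92.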

How the results depend on the processing

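Genes called between WT cortex and choroid plexus numbered 4738, and from 3302 (effective-length correction) to 5279 (DESeq2) under the alternatives. Leaving out 1 library gave 3540 to 4144, with 1923 toward cortex and 2069 toward choroid plexus without cortex replicate 2 against 2593 and 2145 with all libraries. A replicate block gave 4402, although the numbers do not pair the tissues. The lists enriched over input held 739 genes (335 for cortex and 404 for choroid plexus) and 560 to 859 under the alternatives (603 to 806 leaving out 1 library). The effective-length correction gave 281 and 279, so that the excess toward choroid plexus was gone, and leaving out cortex replicate 1 gave 245 and 406. Requiring higher levels in sorted GFP-positive cells, a choice made after seeing the data, left 215, and 169 with the effective-length correction as well. Blocking on the paired dissected sample gave 1871 against 1935 genes for bound over input in cortex, 2759 against 2712 in choroid plexus and 2370 against 2340 for the difference beyond input. Under DESeq2 the share of calls toward bound in cortex was 68.5% against 88.8%, and the share toward cortex beyond input 53.4% against 73.5%. Of 140 named genes called, 111 kept their call with the effective-length correction, 27 lost it, and 2 reversed: Esam to -0.40 and Egfl7 to 0.12. The other alternatives reversed none, and 6 to 21 calls were lost in each. The correction moved the median of all genes from 0.09 to 0.23 and 43.0% of genes by more than 1.5-fold, and 236 of 335 cortex and 263 of 404 choroid plexus list genes kept a call; the cause of the single losses was not tested. The 7517032 and 7585218 counts of the choroid plexus libraries limit what can be seen of rare transcripts there.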
